A study of Mus musculus with 6 samples.

Results

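The genes described here are 36 mouse genes of collagen folding, crosslinking and processing, out of 55401 genes in the count table. They were chosen by name for what their proteins do, with no expression value in the rule. They are the prolyl 4-hydroxylases (P4ha1, P4ha2, P4ha3, P4hb), prolyl 3-hydroxylation genes (P3h1, P3h2, Crtap, Ppib), lysine modification genes (Plod1, Plod2, Plod3, P3h3, P3h4, Colgalt1, Colgalt2) and chaperones (Serpinh1, Fkbp10). The others act in export from the endoplasmic reticulum (ER) and its regulation (Mia3, Sec23a, Creb3l1, Tmem38b), ascorbate transport (Slc23a1, Slc23a2), propeptide processing (Bmp1, Tll1, Pcolce, Pcolce2), crosslinking (Lox, Loxl1, Loxl2, Loxl3, Loxl4, Pxdn) and turnover (Fap, Mrc2, Ctsk).

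Fibrillar collagen is made as a long procollagen. In the ER, prolyl 4-hydroxylase, an enzyme of alpha and beta subunits, hydroxylates prolines, and these hydroxyprolines keep the triple helix stable. Lysyl hydroxylases and galactosyltransferases modify lysines, and chaperones hold the folded helix until it leaves the ER in enlarged carriers. Outside the cell, proteinases cut off the propeptides, lysyl oxidases convert lysines into reactive aldehydes, and these join neighbouring molecules into crosslinked fibrils. The prolyl and lysyl hydroxylases need ascorbate (vitamin C) to stay active, and in bone the crosslinked collagen is the scaffold on which mineral is laid down.

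C3H10T1/2, a line of mouse mesenchymal cells, can be turned into bone, fat or muscle cells. The study asked how NFIB, a transcription factor, and MLL1, a histone H3 lysine 4 methyltransferase encoded by Kmt2a, act in its osteogenic differentiation. RNA was sequenced from cells expressing a control hairpin (shControl, listed as genotype WT), from an Nfib knockdown line (shNFIB) and from a Kmt2a knockdown line (shMLL1). Each line was taken untreated at day 0 and at day 7 in osteogenic medium with β-glycerophosphate, ascorbic acid 2-phosphate and dexamethasone, as 1 library per condition. All lines carried a hairpin, and the labels show 1 line per target. The medium and the 7 days of culture came together, so their effects cannot be told apart. Since bulk RNA was measured, fewer cells of a type and less RNA per cell cannot be told apart either.

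The libraries held 21608680 to 34774066 counts. Levels are CPM, counts brought to a common library size by edgeR's TMM factors (trimmed mean of M-values). Each list of 3 CPM values runs in the order shControl, shNFIB, shMLL1. Nfib and Kmt2a were each lowest in their own knockdown line on both days. The falls did not pass the quasi-likelihood test of edgeR, fitted to both days and adjusted by Benjamini-Hochberg, with a log2 fold change of -2.44 (SE 0.49, adjusted p = 0.115) for Nfib in shNFIB and -1.06 (SE 0.23, adjusted p = 0.154) for Kmt2a in shMLL1. The 7 mesenchymal markers summed to 4392 to 9657 CPM at day 0 and 3179 to 5511 CPM at day 7. In edgeR's test Thy1 (log2 fold change -1.02, adjusted p = 0.00911) and Vim (-1.13, adjusted p = 0.0294) fell at day 7, Pdgfra rose (1.81, adjusted p = 0.0272), and Thy1 was higher in shNFIB (2.33, adjusted p = 0.0266). The 8 osteoblast markers summed to 34.8 to 39.8 CPM at day 0 and 44.6 to 125.01 CPM at day 7. Of the 5 that were tested 2 rose, Alpl (4.45, adjusted p = 0.00156), from 7, 8 and 0 counts to 111, 215 and 2, and Ifitm5 (1.82, adjusted p = 0.0358). Runx2 went from 32.8 to 116.8 CPM in shControl and stayed between 30.4 and 35.3 CPM in the other lines, at 0.61 over the lines (adjusted p = 0.233). Phex (0.23, adjusted p = 0.770) and Dmp1 (2.31, adjusted p = 0.123) did not pass in edgeR's test either. Phex went from 1.66 to 0.820 CPM in shControl, from 2.47 to 8.25 CPM in shNFIB and from 6.63 to 6.19 CPM in shMLL1. Of those not tested, Ibsp had 0 counts in all 6 libraries, and at day 7 Sp7 had at most 7 counts and Bglap at most 13. The 7 adipocyte markers summed to 18.2 to 63.3 CPM at day 0 and 30.1 to 95.3 CPM at day 7. Of the 5 tested 3 rose, Plin1, Cidec and Pparg. Plin1 and Cidec had 0 counts in every day 0 library, so the filter on counts kept them through day 7 alone. At day 7 Plin1 had 472, 9 and 28 counts and Cidec 681, 5 and 17, most of them in shControl. Fabp4 (0.15, adjusted p = 0.714) and Cebpa (-0.64, adjusted p = 0.114) did not pass in edgeR's test, and Cebpa was lower at day 7 in each line. Of those not tested, Adipoq had at most 1 count and Lep at most 20 in a library. The 5 chondrocyte markers summed to 80.9 to 409.7 CPM at day 0 and 90.5 to 130.03 CPM at day 7, nearly all from Sox9 and Col2a1. In edgeR's test Col2a1 fell (-4.503, adjusted p = 0.0054) and Sox9 did not pass (-0.06, adjusted p = 0.872). Acan had 0 counts in all 6 libraries, and Matn1 and Hapln1 at most 3 in a library. The 4 endothelial markers summed to 3.31 to 25.4 CPM at day 0 and 2.76 to 4.94 CPM at day 7. Most of this was Tek, which was lower at day 7 (-1.85, adjusted p = 0.0293). Pecam1 had at most 19 counts in a library, and Cdh5 and Kdr at most 3. The lists for muscle and for osteoclasts and macrophages summed to at most 2.79 CPM. Genes of the mitochondrial chromosome held 2.01% to 2.65% of the counts at day 0 and 4.78% to 7.77% at day 7. The part of these genes and of the marker genes in the differences below was not tested.

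RefSeq promoter entries (GRCm38.p6) were found for 21 of the 36 genes, and the 250 bases before the transcription start were searched on both strands. The following 4 are printed because P4ha1, Plod3, Serpinh1 and Loxl4 belong to successive steps of the pathway and all fell at day 7. Capitals mark ACGTG or its reverse complement in the first 3, a core found in sites of hypoxia-inducible factors and in the unfolded protein response element, and in Loxl4 they mark TTGGC, a site bound by NFI factors such as NFIB. TTGGC also occurs, unmarked, in the printed Plod3 and Serpinh1 promoters.
P4ha1 (chr10:59323046-59323295, + strand): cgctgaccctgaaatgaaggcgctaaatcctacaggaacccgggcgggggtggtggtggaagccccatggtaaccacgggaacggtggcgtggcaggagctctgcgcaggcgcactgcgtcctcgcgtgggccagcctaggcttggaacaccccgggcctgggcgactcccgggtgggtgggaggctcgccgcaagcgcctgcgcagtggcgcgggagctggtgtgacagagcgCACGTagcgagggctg
Plod3 (chr5:136986769-136987018, + strand): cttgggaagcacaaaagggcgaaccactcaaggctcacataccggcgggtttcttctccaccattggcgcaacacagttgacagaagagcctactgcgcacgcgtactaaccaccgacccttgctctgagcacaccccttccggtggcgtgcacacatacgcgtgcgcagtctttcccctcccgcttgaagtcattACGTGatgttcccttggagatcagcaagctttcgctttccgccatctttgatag
Serpinh1 (chr7:99353240-99353489, - strand): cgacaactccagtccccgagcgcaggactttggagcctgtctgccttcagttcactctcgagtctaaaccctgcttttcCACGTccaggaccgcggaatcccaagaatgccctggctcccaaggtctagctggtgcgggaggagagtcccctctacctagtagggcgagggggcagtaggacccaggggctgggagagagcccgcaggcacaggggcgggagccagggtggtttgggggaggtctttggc
Loxl4 (chr19:42612807-42613056, - strand): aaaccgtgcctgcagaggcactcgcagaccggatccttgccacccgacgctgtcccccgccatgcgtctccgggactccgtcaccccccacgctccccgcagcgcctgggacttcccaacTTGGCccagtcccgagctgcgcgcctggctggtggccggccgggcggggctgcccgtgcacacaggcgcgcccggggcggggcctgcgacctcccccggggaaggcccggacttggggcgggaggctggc

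ACGTG was in 9 of the 21 promoters (Mia3, P3h1, P4ha1, P4ha2, P4hb, Plod3, Ppib, Pxdn and Serpinh1), against 18.49% of the promoter windows of 27025 genes. It was in 5 of the 11 genes with a promoter that fell at day 7, in 4 of 8 that did not pass the test and in 0 of 2 that rose. TTGGC was in 9 of 21, against 45.32% of all genes, and by direction also in 5 of 11, 4 of 8 and 0 of 2. CCAAT, which can share letters with TTGGC, was in 8 of 21 against 37.49%, and the full site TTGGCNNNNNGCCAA in 0 of 21 against 0.0444%. In all, 18 motifs were searched, and ACGTG was picked for printing after its matches were known, so its count is a description only. The other 14 were the NFI sites TTGGCNNNNNNGCCAA and, in a shorter form, TGGNNNNNNGCCA, the ER stress element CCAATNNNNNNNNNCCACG, its second form ATTGGNCCACG, the unfolded protein response element TGACGTGG, the heat shock element GAANNTTC, its longer form GAANNTTCNNGAA, the glucocorticoid receptor site ACANNNTGT, the E box CACGTG, the TATA box TATAAA, the SMAD site CAGAC, the RUNX site TGTGGT, the AP-1 site TGANTCA and the TEAD site GGAATG. The SMAD site was in 10 of 21 against 45.8% of all genes, and the others were in 0 to 3 of 21 against 0.037% to 15.92%.

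Measured per kilobase of exon, so that genes can be compared, the highest mean level over the 6 libraries was that of P4hb, at 536 CPM per kb. P4hb is the beta subunit of prolyl 4-hydroxylase and also protein disulfide isomerase, which folds many other proteins. Serpinh1, the collagen chaperone HSP47, was next at 417 CPM per kb, then Lox, the main lysyl oxidase, at 305 CPM per kb and Pcolce, an enhancer of procollagen C-proteinase, at 163 CPM per kb. The lowest were Tll1 at 0.406, Fap at 0.227, Loxl2 at 0.0857 and Colgalt2 at 0.00909 CPM per kb. Colgalt2, a collagen galactosyltransferase, had 7 counts in all, 6 of them in shMLL1 at day 0, and was the only member too low to be tested. A level of 3 counts, taken as the floor, was 0.0939 to 0.123 CPM across libraries.

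**Figure D1:**
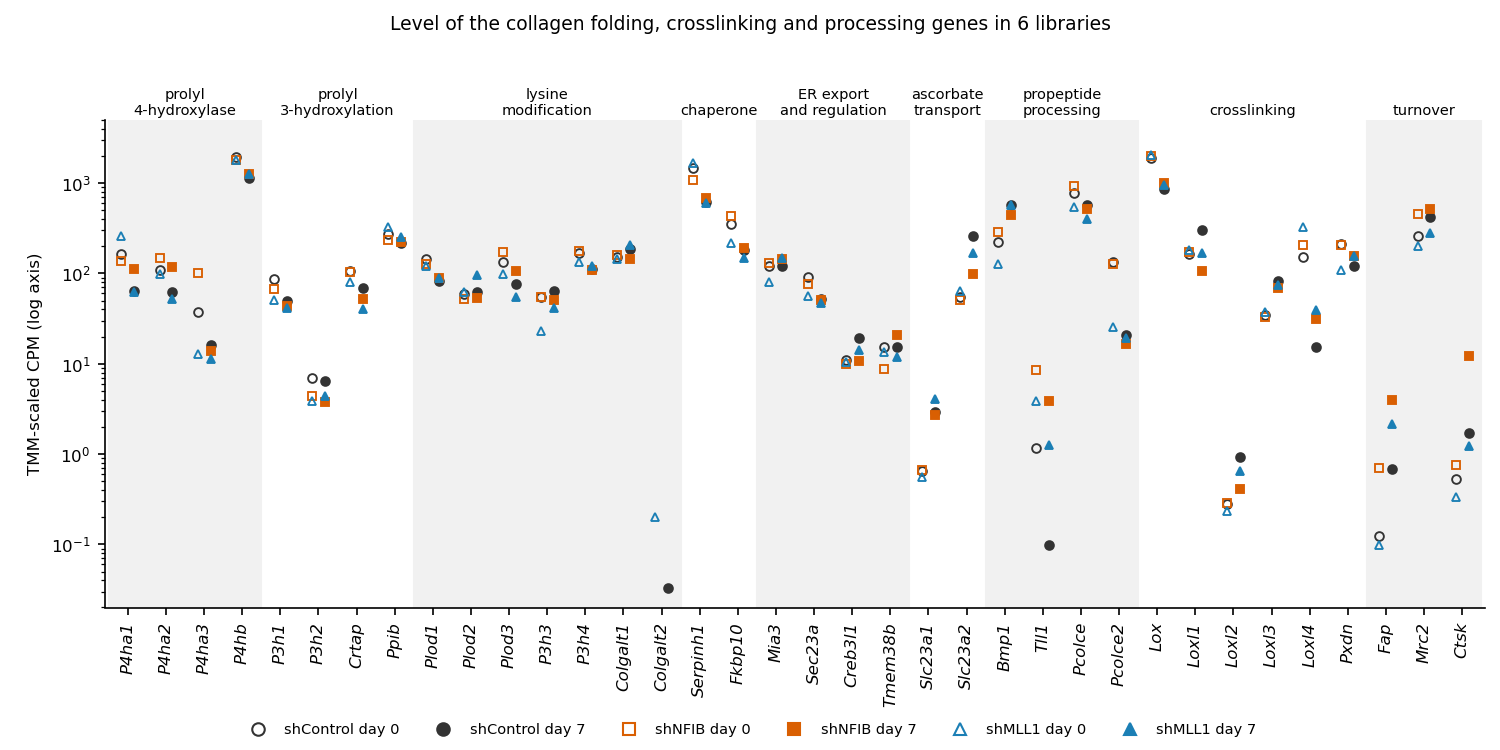
TMM-scaled CPM (log axis) of the 36 genes in the 6 libraries, grouped by role, with open symbols for day 0 and filled symbols for day 7 and 1 point per library. P4hb, Serpinh1 and Lox stand at the top and drop at day 7, Slc23a1 and Slc23a2 stand higher at day 7 in all 3 lines, and libraries with 0 counts of Colgalt2 cannot be drawn on this axis.

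The main comparison asked what changed between day 0 and day 7 over the 3 lines, with the line as a block in edgeR's quasi-likelihood test. Of the 35 members tested, 6 rose (Fap, Ctsk, Slc23a1, Slc23a2, Bmp1 and Loxl3) and 13 fell (Loxl4, Pcolce2, Tll1, P4ha3, P4ha1, Serpinh1, Lox, Fkbp10, Crtap, Plod3, P4ha2, Plod1 and P3h1). Among all 16742 genes tested, 16.9% rose and 16.7% fell, so that 6 of 35 is near the background for rises and 13 of 35 is above it for falls, with no test of the list as a whole. At an unadjusted p below 0.05 there were 22 members, where 47.0% of all genes were. DESeq2's Wald test called 6 members higher and 16 lower, where 16.7% of the genes it tested rose and 17.8% fell. The median log2 fold change of the members was -0.27, against -0.0047 for all genes tested. All 3 lines moved the same way in 10 members upward and 18 downward, where 33.6% and 33.1% of all genes did so. With scaling by library size alone they did in 12 and 16 members, against 38.2% and 27.4% of all genes.

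The levels of the 3 day 7 libraries lay entirely above those of day 0 in 6 members (Slc23a1, Slc23a2, Bmp1, Loxl2, Loxl3 and Ctsk), where 23.7% of all genes did so. They lay entirely below in 12 (P4ha1, P4hb, P3h1, Crtap, Plod1, P3h4, Serpinh1, Fkbp10, Sec23a, Pcolce2, Lox and Loxl4), where 20.9% of all genes did so. Loxl2, with 7 to 9 counts at day 0, passed the filter on counts through day 7 alone. Its place among the rises is therefore no support for one. The number of falls depended on the line left out, in fits with 4 libraries: without the shControl line, 1 member (Loxl4) was called lower and 4 higher, against 7.51% and 7.61% of all genes tested. Without shNFIB 8 were lower and 5 higher, against 14.1% and 15.9%, and without shMLL1 13 and 6, against 16.1% and 15.4%. Fap, Slc23a1, Slc23a2 and Loxl4 kept their calls under each of the 7 alternative fits tried. P3h1 kept its call in 2 of the 7, Plod1 in 3, and P4ha2 and P4ha3 in 4. P4ha1, Lox, Fkbp10, Plod3 and Tll1 kept theirs in 5, and Loxl3, Pcolce2, Bmp1, Ctsk, Crtap and Serpinh1 in 6.

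**Figure D2:**
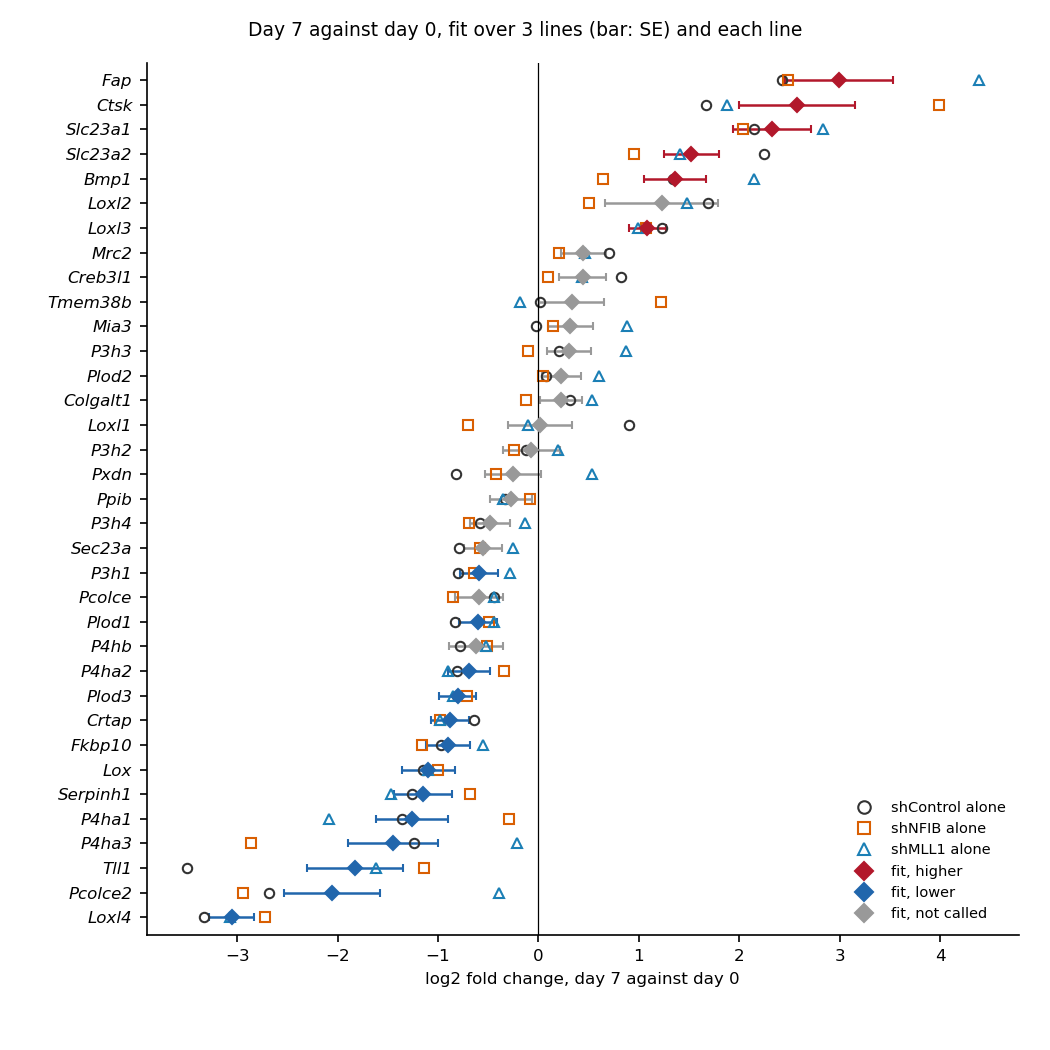
Log2 fold change from day 0 to day 7 of the 35 members tested, as the fit over 3 lines with its SE (diamonds) and as each line alone (open symbols). The range runs from 2.995 for Fap to -3.05 for Loxl4. The 3 lines lie close together for Lox and Loxl3, and far apart for P4ha3, Pcolce2 and Ctsk.

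Of the 4 prolyl 4-hydroxylase genes, 3 fell at day 7 and none rose. P4ha1 (ENSMUSG00000019916, chromosome 10 from 59323296 to 59373304), the most abundant alpha subunit, was at 163, 137 and 263 CPM at day 0 and at 63.6, 112 and 61.8 CPM at day 7. Its levels did not overlap between days, with the smallest step in shNFIB, and the log2 fold change was -1.26 (SE 0.36, adjusted p = 0.0328 from edgeR's quasi-likelihood test after Benjamini-Hochberg adjustment, as are all adjusted p-values here unless another tool is named). Within single lines the log2 fold change of P4ha1 was -1.36 (95% counting interval -1.44 to -1.28) in shControl, -0.29 (-0.36 to -0.22) in shNFIB and -2.09 (-2.17 to -2.01) in shMLL1.

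P4ha3, a further alpha subunit, was at 37.9, 101 and 13.0 CPM at day 0 and at 16.1, 13.97 and 11.1 CPM at day 7. The day 0 libraries spread widely and the shMLL1 one lay below the shControl library of day 7, so the days overlapped. The day 7 levels were close to each other, and the fit gave -1.45 (SE 0.45, adjusted p = 0.0446). P4ha2, the third alpha subunit, fell by 0.70 on the log2 scale (SE 0.21, adjusted p = 0.0391), from a day 0 range of 97.8 to 148 CPM to a day 7 range of 52.4 to 117 CPM. P4hb was lower in all 3 lines, at 1968, 1782 and 1802 CPM against 1146, 1246 and 1253 CPM, without overlap. Its log2 fold change of -0.62 (SE 0.27) did not pass in edgeR (adjusted p = 0.11) but did in DESeq2's Wald test (adjusted p = 0.01085).

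Per kilobase, P4ha1 made up 57.3%, 37.2% and 76.3% of the summed alpha subunit level at day 0 in shControl, shNFIB and shMLL1, and 50.6%, 53.8% and 55.7% at day 7. P4ha3 made up 17.5%, 36.2% and 4.94% at day 0 and 16.8%, 8.84% and 13.2% at day 7. The composition thus differed more between lines at day 0 than at day 7, as a description of single libraries.

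Of the prolyl 3-hydroxylation genes, Crtap and P3h1 fell. Their proteins form a complex with cyclophilin B, the product of Ppib, that modifies a single proline in type I collagen chains. Crtap was at 107, 103 and 80.4 CPM at day 0 and at 68.9, 51.9 and 40.6 CPM at day 7, with no overlap and a log2 fold change of -0.88 (SE 0.19, adjusted p = 0.0127). P3h1 was at 86.03, 67.7 and 50.4 CPM at day 0 and at 49.3, 43.4 and 41.5 CPM at day 7. It did not overlap between days either, although the lowest day 0 library and the highest day 7 library were close, and its -0.59 (SE 0.19, adjusted p = 0.0479) lost the call in 5 of the 7 alternative fits. Ppib, at 218 to 326 CPM over the 6 libraries, and P3h2, at 3.76 to 6.92 CPM, did not pass (adjusted p = 0.344 and 0.864). P3h2 shares 1055 exonic bases with an antisense gene, Gm4524, that had 119 counts against 891.

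In lysine modification, Plod1 and Plod3 fell and the other 4 members tested did not pass. Plod3 (ENSMUSG00000004846), a lysyl hydroxylase that can also attach sugars to hydroxylysine, was at 135, 174 and 97.8 CPM at day 0 and at 76.8, 106 and 54.3 CPM at day 7. The libraries of both days overlapped, but each line stood lower at day 7 by a similar step, and the log2 fold change was -0.80 (SE 0.18, adjusted p = 0.0165). Plod3 shares 529 exonic bases with Znhit1 on the opposite strand, which had 4131 counts against 19562, and the strand setting of the counting is not given in the sources used here. Plod1, which hydroxylates lysines in the helix, was at 145, 126 and 121 CPM at day 0 and at 81.6, 89.3 and 89.5 CPM at day 7. It did not overlap, at -0.60 (SE 0.19, adjusted p = 0.0468), and lost the call in 4 of 7 alternative fits.

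Plod2, which hydroxylates lysines in the telopeptides where crosslinks form, was at 59.7, 51.9 and 62.8 CPM at day 0 and at 62.9, 53.6 and 95.3 CPM at day 7. Only the shMLL1 library of day 7 stood apart, and the log2 fold change of 0.23 (SE 0.19) did not pass (adjusted p = 0.378). Per kilobase, the share of Plod2 in the 3 lysyl hydroxylases was 17.8%, 14.4% and 22.7% at day 0 and 28.7%, 21.3% and 41.2% at day 7, higher at day 7 in each line. P3h3 and P3h4, which partner with Plod1, had log2 fold changes of 0.31 (SE 0.22, adjusted p = 0.312) and -0.48 (SE 0.20, adjusted p = 0.0974), and Colgalt1, the galactosyltransferase of collagen hydroxylysine, was at 144 to 208 CPM in the 6 libraries (0.23, SE 0.21, adjusted p = 0.425).

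Both chaperones fell. Serpinh1 (ENSMUSG00000070436, chromosome 7 from 99345376 to 99353239) was at 1469, 1087 and 1664 CPM at day 0 and at 614, 678 and 603 CPM at day 7. The day 7 libraries were close together and all below day 0, with a log2 fold change of -1.15 (SE 0.29, adjusted p = 0.0223). Fkbp10, a peptidyl-prolyl isomerase that also affects telopeptide hydroxylation, was at 357, 429 and 218 CPM at day 0 and at 182, 192 and 149 CPM at day 7. It did not overlap, at -0.90 (SE 0.22, adjusted p = 0.0196), and shares 193 exonic bases with Nt5c3b on the opposite strand (14096 counts against 46411).

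None of the ER export and regulation genes passed edgeR's test over the 3 lines. Sec23a, a subunit of the COPII coat, was at 56.8 to 90.7 CPM at day 0 and at 47.7 to 52.5 CPM at day 7, without overlap, at -0.55 (SE 0.19, adjusted p = 0.0573). It passed as lower in DESeq2's Wald test (adjusted p = 0.0462) and, in edgeR, without the shMLL1 line (adjusted p = 0.0351). Mia3 (TANGO1), the receptor that loads procollagen into COPII carriers, was at 122, 131 and 79.9 CPM at day 0 and at 119.7, 145 and 148 CPM at day 7 (log2 fold change 0.32, SE 0.23, adjusted p = 0.303). Creb3l1 (OASIS), an ER-bound transcription factor, went from 10.96, 9.94 and 10.5 CPM to 19.4, 10.6 and 14.2 CPM (0.44, SE 0.24, adjusted p = 0.182), higher in each line but with little change in shNFIB. Tmem38b, the ER potassium channel TRIC-B, was at 8.80 CPM at day 0 and 20.6 CPM at day 7 in shNFIB and at 12.01 to 15.5 CPM in the other 4 libraries (0.33, SE 0.32, adjusted p = 0.447).

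Both ascorbate transporters rose. Slc23a2, the widely expressed sodium-dependent carrier SVCT2, was at 54.9, 51.4 and 63.2 CPM at day 0 and at 260.0, 99.5 and 168 CPM at day 7. Every day 7 library stood above every day 0 library, with shControl highest and shNFIB lowest, and the log2 fold change was 1.52 (SE 0.28, adjusted p = 0.00736). Within lines it was 2.24 (95% counting interval 2.17 to 2.32) in shControl, 0.95 (0.87 to 1.04) in shNFIB and 1.41 (1.33 to 1.49) in shMLL1. Slc23a1, the related carrier SVCT1, rose by 2.32 (SE 0.39, adjusted p = 0.00554) at a much lower level, from 0.657, 0.665 and 0.563 CPM to 2.92, 2.74 and 4.06 CPM, or from 17 to 21 counts to 81 to 99 counts.

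Propeptide processing genes moved in both directions. Bmp1 (ENSMUSG00000022098, chromosome 14 from 70474558 to 70520234), the procollagen C-proteinase, which also activates lysyl oxidase, was at 225, 285 and 129 CPM at day 0 and at 569, 444 and 571 CPM at day 7. It did not overlap, and rose by 1.36 (SE 0.31, adjusted p = 0.0161). Its paralogue Tll1 fell by 1.83 on the log2 scale (SE 0.48, adjusted p = 0.0255), from 37, 270 and 118 counts to 3, 115 and 31 counts. The shControl library of day 7 was at the floor, and shNFIB was the highest line on both days. Bmp1 made up 96.6% to 99.98% of the per-kilobase sum of Bmp1 and Tll1 in each library.

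The procollagen C-proteinase enhancers Pcolce and Pcolce2 bind procollagen and speed the work of BMP1. Pcolce2 was at 134, 126 and 25.2 CPM at day 0 and at 20.9, 16.4 and 19.2 CPM at day 7. The shMLL1 line was already near the day 7 level at day 0, and the fit gave -2.06 (SE 0.48, adjusted p = 0.0176). In shMLL1 alone the log2 fold change was -0.39 (-0.56 to -0.23), and its difference from the response in shControl was 2.29 (95% counting interval 2.08 to 2.49, 1 library per condition). Pcolce, at 780.2, 934 and 543 CPM at day 0 and 573, 517 and 400.3 CPM at day 7, did not pass in edgeR (-0.59, SE 0.24, adjusted p = 0.0914) and did in DESeq2 (adjusted p = 0.0240).

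The crosslinking enzymes included the deepest fall of the 35 members tested. Loxl4 (ENSMUSG00000025185, chromosome 19 from 42593982 to 42612813), a lysyl oxidase with scavenger receptor domains, was at 153, 209 and 329 CPM at day 0 and at 15.2, 31.6 and 39.3 CPM at day 7. All day 7 libraries lay far below day 0, and on both days the order was shControl, shNFIB, shMLL1 from low to high. The log2 fold change was -3.05 (SE 0.23, adjusted p = 0.000398), or 8.31-fold lower. Lox was at 1891, 1989 and 2058 CPM at day 0 and at 851, 997 and 960.3 CPM at day 7. The lines were close on each day and did not overlap, at -1.09 (SE 0.27, adjusted p = 0.0201). Lox shares 30 exonic bases with the antisense gene AC161119.1, which had 4087 counts against 264156.

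Loxl3, a lysyl oxidase of the same branch as Loxl4, rose. It was at 34.9, 33.2 and 37.5 CPM at day 0 and at 82.2, 69.7 and 74.5 CPM at day 7, with close libraries on each day and a log2 fold change of 1.09 (SE 0.18, adjusted p = 0.0057). Loxl3 shares 535 exonic bases with Htra2 on the opposite strand, which had 7674 counts against 9682, so a part of its count is uncertain. Loxl2 had 7 to 9 counts at day 0 and 12 to 28 counts at day 7 and did not pass (1.23, SE 0.56, adjusted p = 0.126). Pxdn, peroxidasin, which crosslinks the collagen IV of basement membranes, was at 213, 208 and 109 CPM at day 0 and at 120.4, 156 and 158 CPM at day 7, lower in shControl and shNFIB and higher in shMLL1 (-0.25, SE 0.28, adjusted p = 0.508).

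Loxl1 (ENSMUSG00000032334, chromosome 9 from 58287738 to 58313186), best known for crosslinking elastin, showed different responses by line. It was at 163, 172 and 181 CPM at day 0 and at 304, 106 and 168 CPM at day 7. The lines were close at day 0, and at day 7 shControl was the highest and shNFIB the lowest of the 6 libraries. The shControl library of day 7 also had the most Plin1, Cidec, Runx2 and Ifitm5. Pparg, Alpl and Phex were instead highest in shNFIB at day 7. They were at 84.2, 7.27 and 8.25 CPM there, against 41.96, 3.64 and 0.820 CPM in shControl at day 7. The part of these markers in the Loxl1 difference was not tested. The log2 fold change was 0.90 (95% counting interval 0.85 to 0.95) in shControl, -0.70 (-0.76 to -0.64) in shNFIB and -0.11 (-0.16 to -0.05) in shMLL1, where scaling by library size alone turned it to 0.10. The fit over lines gave 0.02 (SE 0.32, adjusted p = 0.975).

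Per kilobase, Lox made up 80.9%, 79.2% and 75.3% of the summed lysyl oxidase level at day 0 and 61.04%, 79.2% and 72.4% at day 7. Loxl1 made up 10.1%, 9.93% and 9.59% at day 0 and 31.6%, 12.2% and 18.4% at day 7. Loxl4 went from 7.44%, 9.44% and 13.7% to 1.23%, 2.84% and 3.36%. The day 7 family was therefore led by Lox in every line, with a larger part of Loxl1 in shControl than in either knockdown library.

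**Figure D3:**
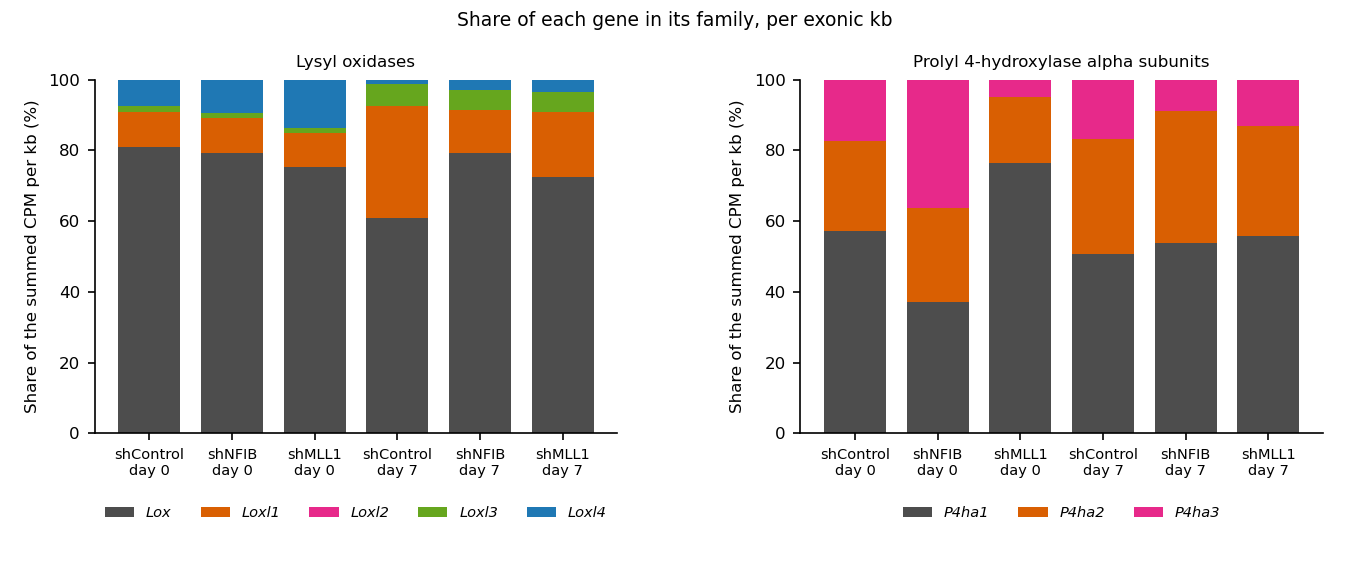
Share (%) of each lysyl oxidase (left) and each prolyl 4-hydroxylase alpha subunit (right) in the summed CPM per kb of its family, 1 bar per library. The Loxl1 part grows to 31.6% in shControl at day 7, the Loxl4 part shrinks in every line, and the alpha subunit bars differ more between lines at day 0 than at day 7. Loxl2, below 0.06% in each library, is too thin to be seen.

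Among the turnover genes, Ctsk and Fap rose from low levels. Ctsk, cathepsin K, the main collagen-degrading proteinase of osteoclasts, had 17, 24 and 10 counts at day 0 and 52, 359 and 30 counts at day 7. All day 7 libraries were above day 0, but shNFIB at day 7, at 12.1 CPM, stood far above the others, which were at most 1.71 CPM. The log2 fold change was 2.58 (SE 0.57, adjusted p = 0.015), and without the shNFIB line it no longer passed (adjusted p = 0.0577). Of the 7 osteoclast and macrophage markers, Adgre1 and Ocstamp were at 0 in every library, and Ptprc had 0 counts at day 7. Csf1r went from 6, 7 and 3 counts to 26, 11 and 15, and did not pass (1.78, SE 0.64, adjusted p = 0.0668). Oscar went from 1, 1 and 0 counts to 4, 4 and 4, and Acp5 and Calcr had at most 3 and 4 counts in a library. The summed level of the 7 was 0.232 to 0.380 CPM at day 0 and 0.609 to 0.984 CPM at day 7.

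Fap, a membrane proteinase of activated fibroblasts that cuts collagen fragments, had 4, 22 and 3 counts at day 0 and 21, 116 and 53 counts at day 7. It was higher at day 7 in each line and highest in shNFIB on both days, so that shNFIB at day 0 overlapped shControl at day 7, and the fit gave 2.995 (SE 0.54, adjusted p = 0.00731). With 3 counts in shMLL1 at day 0, the ratio within that line is wide, at 4.39 (95% counting interval 2.82 to 6.77). Mrc2 (Endo180), the receptor that takes up collagen for breakdown in lysosomes, was at 258, 453 and 203 CPM at day 0 and at 421, 522 and 280.4 CPM at day 7. It was higher at day 7 in each line, overlapped between days and did not pass (0.45, SE 0.22, adjusted p = 0.157).

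Taken line by line, with no test since each condition had 1 library, members past a 2-fold difference between day 7 and day 0 were counted among genes with at least 10 counts in one of the libraries. In shControl, 7 of 35 were higher (Slc23a1, Slc23a2, Bmp1, Loxl2, Loxl3, Fap and Ctsk) against 23.0% of all genes, and 7 were lower (P4ha1, P4ha3, Serpinh1, Tll1, Pcolce2, Lox and Loxl4) against 14.9%. In shNFIB, 5 were higher (Tmem38b, Slc23a1, Loxl3, Fap and Ctsk) against 16.5%, and 5 were lower (P4ha3, Fkbp10, Tll1, Pcolce2 and Loxl4) against 13.9%. In shMLL1, 6 were higher (Slc23a1, Slc23a2, Bmp1, Loxl2, Fap and Ctsk) against 25.8%, and 5 were lower (P4ha1, Serpinh1, Tll1, Lox and Loxl4) against 19.8%. Loxl2 and Fap reached 10 counts at day 7 alone in shControl and shMLL1, so there they could be counted only as higher. Tll1 in shControl reached 10 counts at day 0 alone. The shares of the members were near or below the background in every line. The members on all 3 lists were Slc23a1, Fap and Ctsk above and Tll1 and Loxl4 below.

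The knockdown lines were then compared with shControl. With edgeR's quasi-likelihood test, 0 of 35 members were called for shNFIB, where 0.113% of all genes were higher and 0.305% lower, and 0 for shMLL1, where 0.0119% were higher and 0.0179% lower. At an unadjusted p below 0.05 there were 6 members for shNFIB and 4 for shMLL1, where 12.4% and 9.20% of all genes were. DESeq2's Wald test called 1 member higher in shNFIB (Tll1), where 1.86% of the genes it tested were higher and 1.96% lower. It called 2 members higher in shMLL1 (Tll1 and Loxl4), where 1.03% were higher and 1.44% lower, and no member lower in either line. Both comparisons use the same shControl libraries.

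Tll1, the minor tolloid proteinase, was higher in both knockdown lines on both days. The counts given above correspond to 1.16, 8.55 and 3.91 CPM at day 0 and 0.0984, 3.89 and 1.27 CPM at day 7. The log2 fold change over both days was 3.67 in shNFIB (SE 0.62, adjusted p = 0.0716 in edgeR) and 2.34 in shMLL1 (SE 0.60, adjusted p = 0.247). At day 7 the shControl library had 3 counts, so the ratios are wide, at 5.25 (3.72 to 7.60) for shNFIB and 3.63 (2.01 to 6.04) for shMLL1. Loxl4 was also higher in both knockdown lines on both days, with 0.72 in shNFIB (SE 0.26, adjusted p = 0.336) and 1.27 in shMLL1 (SE 0.26, adjusted p = 0.144).

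At day 0, 3 of 34 members were over 2-fold higher in shNFIB than in shControl (P4ha3, Tll1 and Fap) against 7.26% of all genes, and 0 were lower against 6.32%. In shMLL1, 2 of 33 were higher (Tll1 and Loxl4) against 11.0%, and 3 were lower (P4ha3, P3h3 and Pcolce2) against 9.35%. P4ha3 therefore differed in opposite directions, being higher by 1.42 in shNFIB (95% counting interval 1.32 to 1.52) and lower in shMLL1, at -1.55 (-1.72 to -1.38). The members' shares were near or below these backgrounds. Pcolce2 in shMLL1 was at -2.40 (-2.52 to -2.29), and P3h3 at -1.27 (-1.40 to -1.14).

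At day 7, 4 of 35 members were over 2-fold higher in shNFIB (Tll1, Loxl4, Fap and Ctsk) against 8.07% of all genes, and 3 were lower (Slc23a2, Loxl1 and Loxl2) against 13.2%. Slc23a2 was at -1.39 (95% counting interval -1.45 to -1.32), Loxl1 at -1.52 (-1.58 to -1.46) and Ctsk at 2.83 (2.41 to 3.28). In shMLL1, 3 were higher (Tll1, Loxl4 and Fap) against 8.59%, and 0 were lower against 6.95%. The nearest to a 2-fold fall there were Loxl1 at -0.85 (-0.91 to -0.80), Crtap at -0.76 (-0.87 to -0.65) and Slc23a2 at -0.63 (-0.68 to -0.57).

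**Figure D4:**
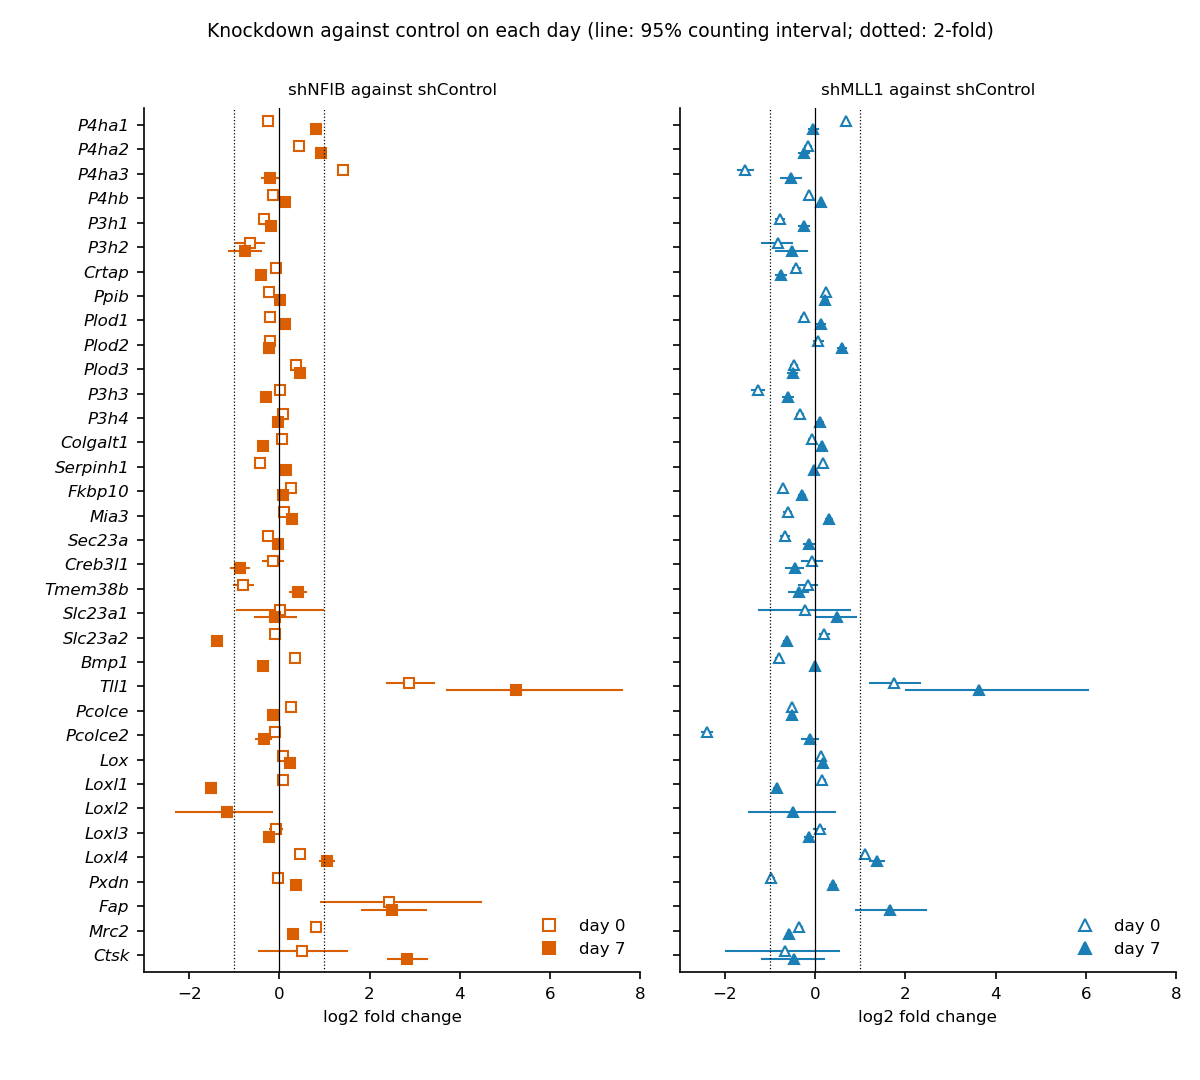
Log2 fold change of each knockdown line against shControl at day 0 (open) and day 7 (filled), 1 library per condition, with 95% intervals of the counts, which cover counting error only. Most members lie between the dotted 2-fold lines. Tll1 lies beyond them in both lines on both days, Fap in shNFIB on both days, and Ctsk in shNFIB at day 7 alone, while pairs with fewer than 10 counts in both libraries are left out.

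Other genes of the pathway were 44 collagen chains, N-propeptidases and paralogues, COPII coat genes and fibril-binding matrix proteins, of which 41 were tested. Over the lines, 7 rose at day 7 (Kera, Lum, Tnxb, Col27a1, Col11a2, Adamts14 and Postn) and 7 fell (Col2a1, Fbln5, Fn1, Col5a2, Col11a1, Fkbp9 and Sec23b), with a median log2 fold change of -0.29 over the 41. Of all genes tested, 16.9% rose and 16.7% fell, so both counts are near the background. The rises ran from 0.90 (Postn) to 7.62 (Kera) and the falls from -0.74 (Sec23b) to -4.503 (Col2a1). None was called for shNFIB or shMLL1 in edgeR's quasi-likelihood test, with 8 and 6 genes at an unadjusted p below 0.05. Of all genes tested, 12.4% and 9.20% were below it. The chains of type I collagen, the main substrate of these enzymes in bone, did not move together. Col1a1 was at 1044, 1130.4 and 1106 CPM at day 0 and at 2526, 1277 and 1382 CPM at day 7, higher in every line, most in shControl (0.57, SE 0.32, adjusted p = 0.197). Col1a2 was at 4443, 6289 and 2702 CPM at day 0 and at 1948, 2081 and 2112 CPM at day 7, lower in every line (-1.06, SE 0.35, adjusted p = 0.0534).

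Col3a1 was at 1979.7, 4431 and 2013 CPM at day 0 and at 854, 1098 and 1871 CPM at day 7 (-1.13, SE 0.40, adjusted p = 0.0661). Col5a2, a chain of the type V collagen that starts fibrils, fell by 1.16 on the log2 scale (SE 0.26, adjusted p = 0.0144). In the same group Col2a1 of cartilage collagen fell by 4.503 (SE 0.75, adjusted p = 0.0054) and Col11a1 by 1.01 (SE 0.30, adjusted p = 0.0376), while Col11a2 rose by 2.30 (SE 0.32, adjusted p = 0.00304) and Col27a1 by 2.82 (SE 0.56, adjusted p = 0.0102). Lum and Kera, small proteoglycans that space collagen fibrils, rose by 6.40 (SE 0.67, adjusted p = 0.000994) and 7.62 (SE 1.19, adjusted p = 0.00443), but Kera had at most 1 count in each day 0 library and 585 of its day 7 counts were in shMLL1. Fbln5, which organizes elastic fibres, fell by 3.55 (SE 0.31, adjusted p = 0.000589).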

How the data were processed

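RNA from 6 conditions was sequenced, with 1 library each. The submitters' processing notes list Trimmomatic 0.39 for trimming, HISAT2 2.2.1 for alignment to GRCm38, SAMtools 1.12 and, for counting by Ensembl gene, HTSeq 0.11.1. What the authors deposited is a table of raw counts. The annotation release and strand setting are not given in the sources used here, so reads of overlapping genes on opposite strands cannot be told apart. Genes were matched to GENCODE M21 (55141 of 55401), and CPM per kb uses the exonic length of that annotation.

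Members and gene lists were chosen with earlier results of these data known. The named genes are every member, the hairpin targets, 4 collagen chains (Col1a1, Col1a2, Col3a1 and Col5a2) and each pathway gene that passed a test. Genes of the marker lists and genes that overlap a member are named too, the markers chosen after their values were seen. The main fit was edgeR 4.0.16 (R 4.3.3, filterByExpr, TMM, quasi-likelihood test, Benjamini-Hochberg threshold of 0.05) with line and day as terms, on 16742 genes with 2 residual degrees of freedom. It was run on simulated data in which 200 genes changed by 2 on the log2 scale. The coefficient of variation was 0.28, and the lines had no other differences. Of the changed genes, 191 were called in the right direction for the day, 176 for shNFIB and 163 for shMLL1. Smaller changes, such as those of most members called here, were not simulated. Some genes were low at day 0 and kept by the filter through their day 7 counts, such as Loxl2, Fap, Alpl, Plin1, Cidec and Kera. The test could hardly show a fall in them. The lines pair the days, since both libraries of a line come from the same cells, and deviations of both days correlated at 0.424 in shControl, 0.423 in shNFIB and 0.269 in shMLL1. Ratios of single libraries used TMM and a prior count of 0.125, with exact Clopper-Pearson 95% intervals that cover counting error only (scipy 1.17.1), since reads are not independent molecules. Alternatives were DESeq2 1.42.0 (test and size factors), library size alone, other filters, a prior count of 2, an exact test at an assumed coefficient of variation of 0.2, no block, and each line left out. With line and day as terms, p-values of the main fit rest on how unlike the day responses of these lines were. Differences between the lines that hold on both days are not part of that spread. Since nothing names separate cultures within a line, and each target had 1 line, no p-value covers the spread between cultures or between lines of the same target. Promoter sequences are from RefSeq. ChIP-seq and the study's own comparisons were not used here.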

Additional observations from a re-analysis of the deposited data

Results flagged for a closer look

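Loxl1, a lysyl oxidase, stood out because its day 7 level moved up in shControl and down in both knockdown lines. The log2 fold change from day 0 to day 7 was 0.90 in shControl, -0.70 in shNFIB and -0.11 in shMLL1, from 1 library per condition, and the difference between lines was not tested against a spread between replicates. Against the shControl response, that of shNFIB differed by -1.60, with a 95% counting interval of -1.68 to -1.52. That of shMLL1 differed by -1.01, with -1.08 to -0.93. With scaling by library size alone the shMLL1 value was 0.10, and those of shControl and shNFIB were 1.00 and -0.60.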

How the results depend on the processing

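The day effect gave 13 members lower. Without the line as replicate block it gave 7, and with 1 line left out 1 to 13 (1 without shControl). The count of members higher was 4 to 6 over the same fits. For shNFIB, the 0 members higher became 2 (Tll1 and Fap) with all genes that had at least 1 count, 1 (Tll1) with DESeq2's Wald test and 2 with only the 4 libraries of shControl and shNFIB. For shMLL1, 0 became 2 (Tll1 and Loxl4) with all genes and 2 with DESeq2. The share of all genes called is not given for the fits without the block, with all genes, and for a knockdown with 4 libraries. Those counts cannot be set against a background. Of the ratios at day 0, the 2 members higher in shMLL1 became 1 with the exact test, and at day 7 the 0 members lower became 1 with no filter on counts. That member was Colgalt2 in shMLL1, left out by the filter, with 1 count in shControl and 0 in shMLL1 at day 7. The cause of the other changes was not tested. The other 90 counts stayed within 1.5 times the main one.

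Signs turned for values near 0 that passed no test. Over the days, with 1 line left out, Pxdn ran from -0.588 to 0.0519 (without shControl), Loxl1 from -0.409 (without shControl) to 0.393, Tmem38b from -0.0877 (without shNFIB) to 0.651 and P3h2 from -0.146 to 0.0271 (without shNFIB). For shNFIB, P3h4 (0.0227) and Bmp1 (0.0359) turned with all genes, and Bmp1 (0.00543) with DESeq2. For shMLL1, Loxl3 (-0.0207) and P4hb (-0.000647) turned with all genes. Library size alone moved the median gene by up to 0.21 on the log2 scale, in the day response of shMLL1. At 1 library per condition, no ratio of a pair has a replicate check, and ratios with 3 or fewer counts are wide.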
